A study of Mus musculus with 18 samples.

Results

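The circadian clock genes of mouse CD4+ T cells were described across the presence and absence of ERRα, resting and antibody-stimulated culture, and treatment with ERRα inhibitors. The 10 genes were Npas2, Clock, Arntl (now Bmal1), Per1, Per2, Cry1, Nr1d1, Nr1d2, Dbp and Bhlhe40 (formerly Bhlhb2). The set was chosen by clock function and by symbol from the array's annotation, with earlier results of these data in view, and it makes up 10 of the array's 12393 genes and 15 of its 20380 probe sets for a single gene. The measured value used for selection was the mean over the 18 arrays, which picked the main probe set of each gene. Of these 10, 9 reached log2 4 on at least 3 arrays, the floor for testing, as did 6873 genes in all. Nr1d1 did not reach it, and Npas2 and Per2 passed it only through the groups where they were high. The remaining 7 genes lay at or above log2 4 on all 18 arrays. Npas2 was proposed for its pattern over these samples, so its values are given as a description with no test. Per2 had to be high somewhere to pass the floor, so its levels too are described without a test. Counts of genes past the test are over the 7 genes that lay above the floor throughout. The fit did include Per2, and its calls enter only the counts under alternative settings, where none is read as support.

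The arrays, Affymetrix Mouse Genome 430A 2.0 chips, fall into 6 groups of 3 independent biological replicates. Knockout (KO) cells came from ERRα-/- mice and were stimulated or resting. Wild-type (WT) cells were treated with XCT790, treated with compound A, stimulated without inhibitor, or resting. All mice were 6 to 8 weeks old, and CD4+ T cells were isolated by negative magnetic selection. ERRα, encoded by Esrra, is an orphan nuclear receptor that activates genes of mitochondrial energy metabolism. Resting cells were harvested ex vivo without culture. Stimulated cells were cultured for 12 h with 10 µg of antibodies to the T cell receptor complex (CD3) and to its main co-stimulatory receptor (CD28). The inhibitors were given at 20 µM, namely XCT790, which acts as an inverse agonist on ERRα, and compound A, for which the labels give a code alone. The labels do not say how the ERRα allele was made, whether mice were pooled for a sample, or at what time of day cells were taken. The comparison of stimulated with resting cells therefore joins activation with 12 h of culture.

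In the mammalian clock, the transcription factor BMAL1 pairs with CLOCK or with its paralogue NPAS2 and binds E-box sequences, which switches on the genes for the PER and CRY proteins. PER and CRY proteins then repress that pair, which closes a loop of about a day. In a second loop the nuclear receptors REV-ERBα and REV-ERBβ, encoded by Nr1d1 and Nr1d2, repress Arntl, while ROR receptors activate it. Dbp, an output transcription factor, and Bhlhe40, a repressor that competes for E-boxes, are also driven through E-boxes, and Bhlhe40 is in addition known as a gene induced by T cell receptor signalling that shapes cytokine production in T cells.

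Promoter sequence is shown for Npas2, which was read above the floor in stimulated WT cells alone, and for Per1 and Cry1, the genes in which a clock motif was found. Sequences are the 250 bases before a transcript start in RefSeq (GRCm38.p6), printed 5′ to 3′ along the gene's strand, and capitals mark an E-box. The Npas2 window is chr1:39194022-39194271 on the plus strand, the Per1 window is chr11:69098699-69098948 on the plus strand, and the Cry1 window is chr10:85185055-85185304 on the minus strand. The Npas2 and Per1 windows lie inside the annotated span of their genes, since other transcripts start further upstream, and the Cry1 window lies next to the gene's 5′ end.
Npas2: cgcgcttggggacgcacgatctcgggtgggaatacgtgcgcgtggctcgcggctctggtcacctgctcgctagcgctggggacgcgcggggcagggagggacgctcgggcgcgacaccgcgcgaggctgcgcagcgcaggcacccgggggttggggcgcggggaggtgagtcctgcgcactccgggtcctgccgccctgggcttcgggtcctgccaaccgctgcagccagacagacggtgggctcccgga
Per1: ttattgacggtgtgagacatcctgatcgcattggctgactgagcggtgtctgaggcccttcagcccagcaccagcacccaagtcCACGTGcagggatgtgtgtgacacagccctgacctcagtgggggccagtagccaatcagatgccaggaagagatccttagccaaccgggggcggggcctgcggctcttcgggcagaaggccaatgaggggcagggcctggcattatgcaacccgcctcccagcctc
Cry1: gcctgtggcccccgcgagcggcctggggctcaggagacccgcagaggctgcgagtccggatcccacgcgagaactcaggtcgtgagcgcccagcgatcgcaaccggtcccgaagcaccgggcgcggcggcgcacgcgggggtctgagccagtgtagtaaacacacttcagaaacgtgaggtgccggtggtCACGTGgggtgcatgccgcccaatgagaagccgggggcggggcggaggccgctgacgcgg
RefSeq's table held 12 windows for 8 of the 10 genes. Searched on both strands were the E-box CACGTG, the D-boxes TTATGTAA and TTACGTAA that Dbp binds, the core TAGGTCA of elements bound by ROR and REV-ERB, the ERR element TCAAGGTCA, and the cyclic AMP response element TGACGTCA. The core TAGGTCA and the ERR element share the letters AGGTCA. An E-box stood 166 bases before the start in Per1 and 60 bases before it in Cry1. No other motif was found in the 12 windows. Among 32851 promoter windows of the same length, 6.02% held the E-box, 0.819% and 0.113% the 2 D-boxes, 2.23% the ROR core, 0.387% the ERR element and 1.55% the cyclic AMP element. A match is a description of letters and not of binding, and a window without one says only that these letters are not in it.

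The values are log2 GCRMA signals, and every array holds the same sorted values, so a change is relative to the other genes on its array. Between arrays of a group, Pearson's r over genes lay from 0.968 to 0.998. Esrra averaged 4.45 ± 0.23 in stimulated and 4.55 ± 0.18 in resting KO cells, against 5.37 ± 0.09 in stimulated and 5.42 ± 0.15 in resting WT cells (SD, n = 3 each). Il2, the T cell growth factor, averaged 10.9 with XCT790 and 10.3 with compound A, against 11.3 in stimulated and 4.46 in resting WT cells, although the labels' stimulation field calls the inhibitor samples unstimulated while the protocol places both inhibitors in the 12 h stimulation. Il2ra, a chain of the IL-2 receptor, averaged 10.3 with XCT790 and 10.6 with compound A, against 10.8 in stimulated and 7.03 in resting WT cells. A bacterial control RNA, dap, whose 5′ probe set read 7.45 to 8.51 on 12 arrays, read 3.99 to 6.38 on the 6 untreated WT arrays, resting and stimulated. Comparisons of KO or inhibitor arrays with untreated WT arrays cross that split, and in them the split and the group cannot be told apart. Comparisons of stimulated with resting cells of 1 genotype, and of XCT790 with compound A, do not cross it. On all 18 arrays the 6 T cell markers with a probe set, of 7 listed, lay above log2 4. Macrophage markers were high at rest and low after culture, with 9 of 9 tested markers lower in stimulated than in resting cells of either genotype. The mean of 10 macrophage markers was 2.31 to 2.76 on stimulated KO arrays and 8.20 to 9.89 on resting KO arrays, and 2.37 to 2.39 on stimulated WT arrays and 7.60 to 8.63 on resting WT arrays. Of these 10 markers, 9 lay under log2 4 on all 3 stimulated KO arrays and 10 on all 3 stimulated WT arrays. In bulk samples, fewer cells of a type and less RNA per cell cannot be told apart.

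Npas2, the DNA-binding partner of BMAL1 that can stand in for CLOCK, was read above log2 4 in 1 group of the 6. Its main probe set read 2.66, 2.99 and 3.00 on the stimulated KO arrays and 2.24 on each of the 3 resting KO arrays. With XCT790 it read 2.29, 2.29 and 2.26, and with compound A 2.34, 2.30 and 2.54. Stimulated WT arrays read 5.48, 6.21 and 5.71, and each of the 3 resting WT arrays read 2.24. The 3 stimulated WT arrays therefore lay above all 15 other arrays, which were all under log2 4.

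**Figure D1:**
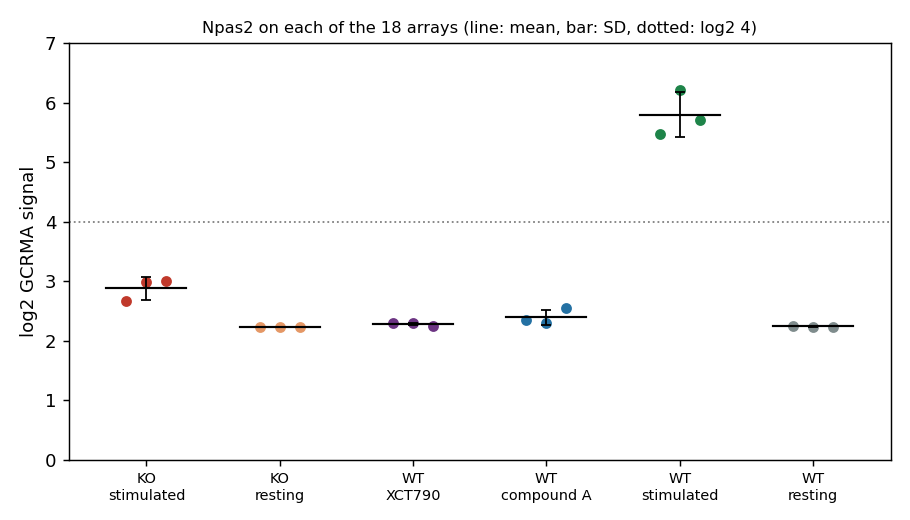
Npas2 signal (log2 GCRMA, vertical axis) on each of the 18 arrays by group, with lines for the group mean, bars for the SD and a dotted line at log2 4. The 3 stimulated WT arrays read 5.48 to 6.21, and all other arrays read 3.00 or less.

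By deposited mean the groups ran stimulated WT, stimulated KO, compound A, XCT790, resting WT and resting KO. Only the last 2 of these neighbours had overlapping arrays, but all groups after the first lay under the floor of log2 4, so their order is not read as an order of expression. The mean was 2.88 ± 0.19 in stimulated KO cells and 5.80 ± 0.37 in stimulated WT cells (SD, n = 3 each), a log2 difference of -2.92 ± 0.14 (SE). Against the floor of log2 4, the stimulated WT level was at least 3.49-fold higher than in stimulated KO cells, resting WT cells and cells with either inhibitor. The log2 difference between stimulated and resting cells was 0.65 ± 0.14 (SE) in KO cells, all of it under the floor, and 3.56 ± 0.14 (SE) in WT cells, so that the KO response minus the WT response was -2.91 ± 0.20 (SE). Since all KO, resting WT and inhibitor arrays lay under the floor, these log2 differences are differences of the deposited values, and the at-least fold is the bound on the change. The SEs of Npas2 come from a spread pooled over all 6 groups, some of which hardly vary under the floor. The SD was 0.002 in resting KO and 0.003 in resting WT cells, so these SEs may be too small for the stimulated groups. The log2 difference from stimulated WT cells was -3.52 ± 0.14 with XCT790 and -3.41 ± 0.14 with compound A (SE). The differences of KO and inhibitor arrays from stimulated WT arrays cross the dap split, and in them the split and the group cannot be told apart. The difference of stimulated from resting WT arrays does not cross it. A second Npas2 probe set read 2.18 to 2.19 on all 18 arrays and carried no difference between groups. The pattern therefore rests on 1 probe set.

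Clock, the usual partner of BMAL1, differed little between the KO and untreated WT groups on its main probe set and was higher with XCT790. Its signal was 5.53, 6.03 and 5.59 in stimulated KO cells and 5.66, 5.92 and 6.15 in resting KO cells. XCT790 arrays read 7.20, 6.61 and 6.89, and compound A arrays 5.95, 6.23 and 6.05. Stimulated WT arrays read 6.12, 6.00 and 6.00, and resting WT arrays 5.93, 6.32 and 6.06. The XCT790 arrays lay above all others, and the other 5 groups overlapped each with its neighbour in the order resting WT, compound A, stimulated WT, resting KO and stimulated KO. A dimmer second probe set read 5.59, 4.79 and 5.53 with XCT790, against 4.63, 4.68 and 4.62 in stimulated WT cells, again without overlap. On this probe set KO arrays lay below WT arrays in both states, a difference that was not tested. Stimulated KO arrays read 3.79, 4.54 and 4.55, the first under log2 4. Resting KO arrays read 4.06, 4.24 and 4.24, against 4.74, 4.43 and 4.41 in resting WT cells.

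Arntl, which encodes BMAL1, was lower in stimulated than in resting cells and was high with XCT790. Its values were 6.72, 6.84 and 6.51 in stimulated KO cells and 6.90, 7.32 and 7.47 in resting KO cells. With XCT790 they were 7.92, 7.62 and 7.72, and with compound A 7.16, 7.39 and 7.29. Stimulated WT cells had 6.79, 6.88 and 6.65, and resting WT cells 7.30, 7.75 and 7.57. By mean, XCT790 came first, followed by resting WT, compound A and resting KO, each overlapping the next. Both stimulated groups came last, overlapped each other and lay below every other array.

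Per1, an early-responding gene whose protein represses the CLOCK and BMAL1 pair, stood out on the XCT790 arrays. It read 7.36, 7.22 and 7.24 in stimulated KO cells and 7.03, 7.12 and 7.08 in resting KO cells. XCT790 arrays read 9.73, 8.72 and 9.39, and compound A arrays 7.59, 7.42 and 7.35. Stimulated WT arrays had 7.65, 7.64 and 7.52, and resting WT arrays 7.25, 7.92 and 7.62. The lowest XCT790 array lay above the highest array of any other group.

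Per2, the paralogue that acts in the same repressor complex, lay under log2 4 on all KO, compound A and resting WT arrays. It read 2.90, 3.05 and 3.05 in stimulated KO cells and 2.61, 2.72 and 2.71 in resting KO cells. The XCT790 arrays read 5.06, 4.49 and 4.49, and the compound A arrays 3.04, 3.10 and 3.09. In stimulated WT cells the arrays read 3.07, 4.32 and 4.23, and in resting WT cells 2.73, 2.80 and 2.81. Per2 passed the filter through the XCT790 arrays and 2 of the 3 stimulated WT arrays, and against the floor XCT790 arrays were at least 1.60-fold higher than compound A or resting WT arrays. The first stimulated WT array lay with the dim groups, and a second probe set read 2.19 on all arrays.

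Cry1, which encodes the cryptochrome that holds the repressor complex on its targets, was highest with XCT790 and lowest at rest. Stimulated KO arrays read 7.13, 7.17 and 7.20, and resting KO arrays 6.35, 6.79 and 6.52. Signals were 8.27, 8.12 and 8.24 with XCT790 and 7.16, 7.35 and 7.27 with compound A. They were 7.14, 7.23 and 7.36 in stimulated WT cells and 6.73, 6.91 and 6.72 in resting WT cells. Compound A, stimulated WT and stimulated KO arrays overlapped, lay below all XCT790 arrays and above all resting arrays.

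Of the REV-ERB genes, Nr1d1 read 2.25 to 2.31 on all 18 arrays and was not tested. Nr1d2, its paralogue, was among the brighter clock genes on the array and was high in 3 groups. It read 7.97, 8.24 and 8.40 in stimulated KO cells and 9.06, 9.96 and 9.95 in resting KO cells. With XCT790 it read 10.34, 10.11 and 10.50, and with compound A 7.86, 7.80 and 8.00. Stimulated WT arrays read 8.24, 8.49 and 8.42, and resting WT arrays 9.83, 10.27 and 10.02. XCT790 arrays thus overlapped the resting WT arrays, while compound A arrays lay at the low end. A second Nr1d2 probe set read 2.14 to 2.15 on all arrays.

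Dbp, a direct E-box output of the clock, was highest at rest in both genotypes. It read 4.93, 6.00 and 6.08 in stimulated KO cells and 7.10, 7.91 and 7.81 in resting KO cells. XCT790 arrays read 5.48, 6.12 and 6.50, and compound A arrays 5.08, 5.76 and 5.68. Stimulated WT cells had 5.96, 6.54 and 6.43, and resting WT cells 8.05, 8.51 and 8.08. The resting WT arrays lay above all others, the resting KO arrays followed, and the 4 cultured groups overlapped each with its neighbour. The array numbered 1 was the lowest for Dbp in all 6 groups. On a second Dbp probe set, XCT790 arrays read 4.41 to 5.24, below the 5.55 to 6.25 of stimulated WT arrays, whereas on the main probe set these groups overlapped. The same held for stimulated KO arrays, which read 4.64 to 5.49 on the second probe set. At rest the KO arrays (5.88 to 7.31) and WT arrays (7.10 to 7.47) overlapped on it.

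Bhlhe40, the E-box repressor also known as DEC1, had the widest range of the tested clock genes. Its signals were 10.56, 10.27 and 10.20 in stimulated KO cells and 6.63, 7.58 and 7.86 in resting KO cells. With XCT790 they were 12.66, 12.06 and 12.29, and with compound A 9.83, 10.10 and 10.10. Stimulated WT arrays read 10.07, 9.74 and 9.94, and resting WT arrays 6.71, 7.73 and 7.02. XCT790 arrays came first, and the 2 resting groups, which overlapped, lay below every cultured array. Stimulated KO arrays lay just above compound A and stimulated WT arrays, which overlapped each other.

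**Figure D2:**
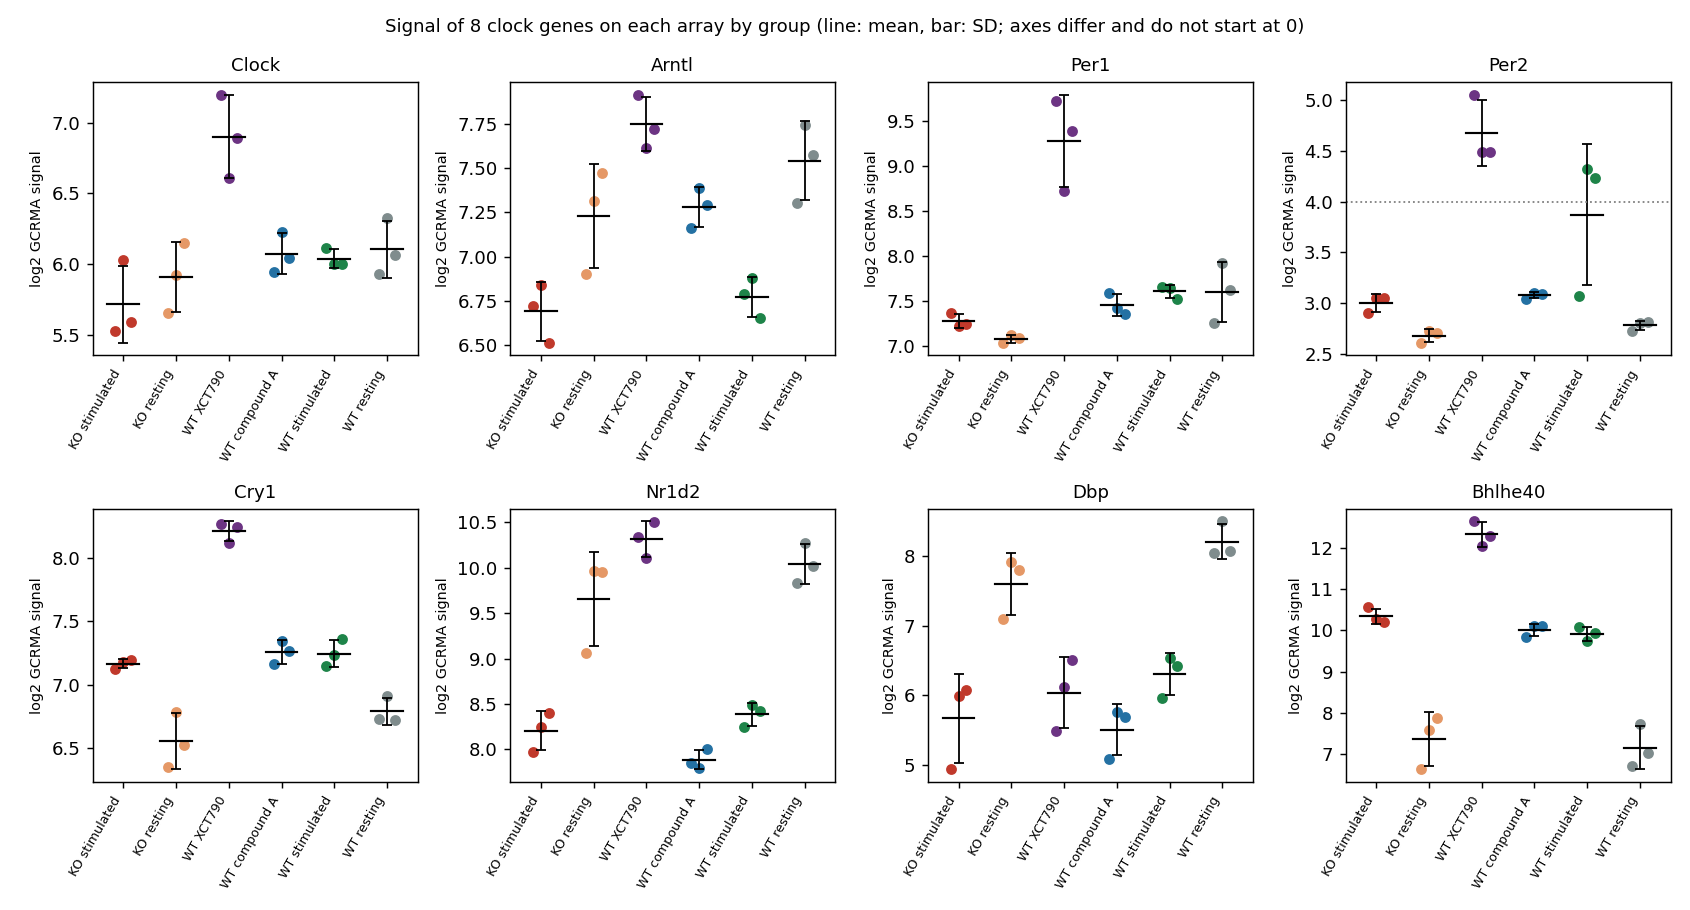
Signal (log2 GCRMA, vertical axes, which differ and do not start at 0) of the 8 clock genes past the floor other than Npas2 on each array by group, with lines for means, bars for SDs and a dotted line at log2 4 where it is in range. The XCT790 arrays are the highest group for Clock, Per1, Per2, Cry1 and Bhlhe40 without overlap, and the resting WT arrays for Dbp.

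The first comparison asked whether loss of ERRα changed these genes. None of the 7 clock genes above the floor throughout passed the test between genotypes. Npas2 and Per2 were described with no test read for them, and Nr1d1 did not reach the floor. In resting cells, KO against WT, 0 of 7 passed the limma test at an adjusted p under 0.05. Of all 6873 tested genes, 19.0% passed (6.74% higher and 12.3% lower). On main probe sets, the groups did not overlap for 2 of the 7 genes, Per1 and Dbp, each lower in KO. They did not overlap for 38.9% of all tested genes. Per1 differed by -0.52 ± 0.20 (SE; limma adjusted p = 0.0787). Dbp differed by -0.61 ± 0.33 (SE, limma adjusted p = 0.209). With the array number as a block it passed (limma adjusted p = 0.0223), the 1 gene of the 7 to do so. The 19.0% of all genes is from the fit without that block. Per1 passed without resting WT array 1 (-0.70; limma adjusted p = 0.0380), and Cry1 passed without resting KO array 2 (-0.35; limma adjusted p = 0.0182). Median differences at rest were -0.31 over the 7 genes and -0.11 over all genes tested. Markers of other cells moved with the genotype at rest. The mean of 8 erythroid markers with a probe set was 7.29 to 9.14 in resting KO and 3.77 to 5.93 in resting WT arrays, that of 10 neutrophil markers was 6.22 to 8.58 in KO and 3.71 to 5.22 in WT, and that of 7 B cell markers was 6.36 to 6.41 in KO and 6.83 to 7.79 in WT. Their part in these differences was not tested.

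In stimulated cells, KO against WT, 0 of 7 genes passed the limma test, where 2.18% of all genes passed (1.59% higher and 0.597% lower). On main probe sets, groups did not overlap for 2 of the 7, Per1, lower in KO, and Bhlhe40, higher in KO. They did not overlap for 32.8% of all tested genes. Per2 reached the floor on 2 of the 3 stimulated WT arrays and on none of the KO arrays. For Clock the difference was -0.32, with a 95% interval from -0.69 to 0.04, and for Arntl it was -0.08, from -0.40 to 0.23. These intervals show the sizes that 3 arrays per group could not tell from no difference. Medians were -0.18 over the 7 genes and -0.06 over all genes. The interaction of genotype and stimulation passed for 0 of 7 genes. Of all genes, 0.902% passed (0.48% with a positive and 0.422% with a negative term).

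Most of the 7 clock genes differed between stimulated and resting cells, as did most genes on the array. Stimulated cells had also been cultured for 12 h, so the antibodies, the culture and the elapsed time cannot be told apart. In KO cells, stimulated against resting, 5 of 7 genes passed, Cry1 and Bhlhe40 higher and Arntl, Nr1d2 and Dbp lower, where 73.4% of all genes passed (37.7% higher and 35.7% lower). In WT cells 5 of 7 passed, the same 5 genes in the same directions, where 75.4% of all genes passed (37.0% higher and 38.4% lower). Neither share stands above its background. Medians over the 7 genes were -0.19 in KO and -0.07 in WT cells, beside 0.01 and -0.01 over all genes.

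Bhlhe40 was 7.91-fold higher in stimulated than in resting KO cells (log2 difference 2.98 ± 0.29, SE; limma adjusted p = 3.24e-07), against 6.79-fold in WT cells (2.76 ± 0.29; limma adjusted p = 6.24e-07). Dbp was 3.83-fold lower in KO cells (limma adjusted p = 0.000107) and 3.75-fold lower in WT cells (0.000113). Nr1d2 fell 2.73-fold in KO and 3.14-fold in WT cells, with log2 differences of -1.45 ± 0.21 and -1.65 ± 0.21 (SE). The fall of Arntl was smaller, 1.46-fold in KO (log2 difference -0.54 ± 0.15) and 1.71-fold in WT cells (-0.77 ± 0.15; SE), and Cry1 was 1.53-fold higher in KO and 1.37-fold higher in WT cells. Clock and Per1 did not pass in either genotype, and in WT cells their log2 differences were -0.07 (95% interval -0.43 to 0.30) and 0.00 (-0.42 to 0.43). Resting arrays carried the macrophage, erythroid and B cell transcripts given above, and the part of those cells in the falls of Dbp, Nr1d2 and Arntl was not tested.

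**Figure D3:**
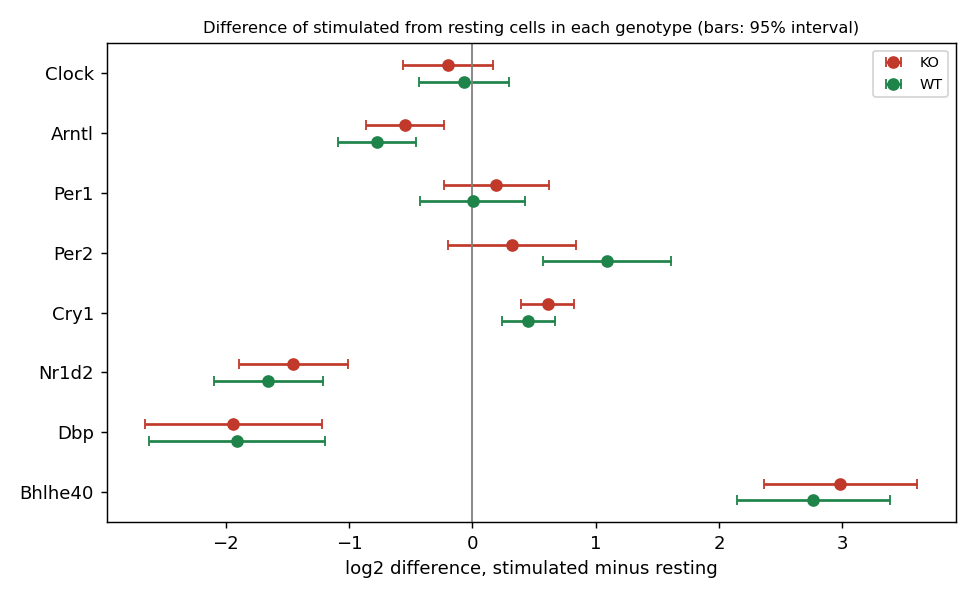
Log2 difference of stimulated minus resting cells (horizontal axis) for 8 clock genes, with 95% intervals from the limma fit, in KO cells (red, upper of each pair) and WT cells (green). The intervals of KO and WT overlap for each of the 7 genes above the floor throughout, and Bhlhe40, Dbp and Nr1d2 lie farthest from 0 in both. Per2, whose means in these groups all lie under log2 4, is drawn as a description.

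The inhibitors were compared with stimulated WT cells, which share the antibodies and 12 h of culture per the protocol. With XCT790, 6 of 7 genes were higher and none was lower, where 66.0% of all genes passed (29.1% higher and 36.9% lower). For these 6 genes the XCT790 arrays lay above the stimulated WT arrays, and 75.7% of all tested genes had groups that did not overlap in either direction. The median difference was 0.98 over the 7 genes and -0.06 over all genes. With compound A, 1 of 7 genes passed, Arntl, which was higher, where 33.2% of all genes passed (14.5% higher and 18.7% lower), and the medians were 0.01 over the 7 genes and -0.03 over all genes. With the array number as a block, Dbp (limma adjusted p = 0.0029) and Nr1d2 (limma adjusted p = 0.0380) also passed with compound A, both lower. The shares of all genes given above are from the fit without that block. T cell markers moved with XCT790 as well. The mean of the 6 markers was 11.1 to 11.3 with XCT790 and 11.8 to 11.9 in stimulated WT arrays, with 4 of 6 markers lower. It was 11.9 to 12.0 with compound A, with 1 of 6 higher than in stimulated WT arrays. The part of these markers in the clock gene differences was not tested. XCT790 and compound A share the stimulated WT arrays, so their differences from those arrays are not independent.

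Bhlhe40 was 5.34-fold higher with XCT790 than in stimulated WT cells (log2 difference 2.42 ± 0.29, SE; limma adjusted p = 4.40e-06), and with compound A the difference was 0.09, with a 95% interval from -0.53 to 0.71. Nr1d2 was 3.81-fold higher with XCT790 (1.93 ± 0.21; limma adjusted p = 1.41e-06), and the compound A difference was -0.50 ± 0.21 (limma adjusted p = 0.0771). Per1 was 3.19-fold higher with XCT790 (1.68 ± 0.20; limma adjusted p = 4.18e-06), against a compound A difference of -0.15 (95% interval -0.58 to 0.28). The activator and cryptochrome genes moved less. With XCT790, Arntl was 1.97-fold higher (0.98 ± 0.15; limma adjusted p = 4.04e-05), Cry1 1.95-fold higher (0.96 ± 0.10; 1.14e-06) and Clock 1.82-fold higher (0.86 ± 0.17; 0.000427). Arntl was the one of them that passed with compound A, 1.42-fold higher (0.51 ± 0.15; limma adjusted p = 0.0172), a call that ended without stimulated WT array 3 (0.0682) or without compound A array 2 or 3 (0.0686 and 0.0502). Dbp did not pass with XCT790 (-0.27 ± 0.33; limma adjusted p = 0.500) or with compound A (-0.80 ± 0.33; 0.0793), although its compound A and stimulated WT arrays did not overlap.

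Per2 read above the floor on all 3 XCT790 arrays, on none of the compound A arrays and on 2 of the 3 stimulated WT arrays. With the dim stimulated WT array set to the floor, its XCT790 level was 1.41-fold higher than in stimulated WT cells.

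**Figure D4:**
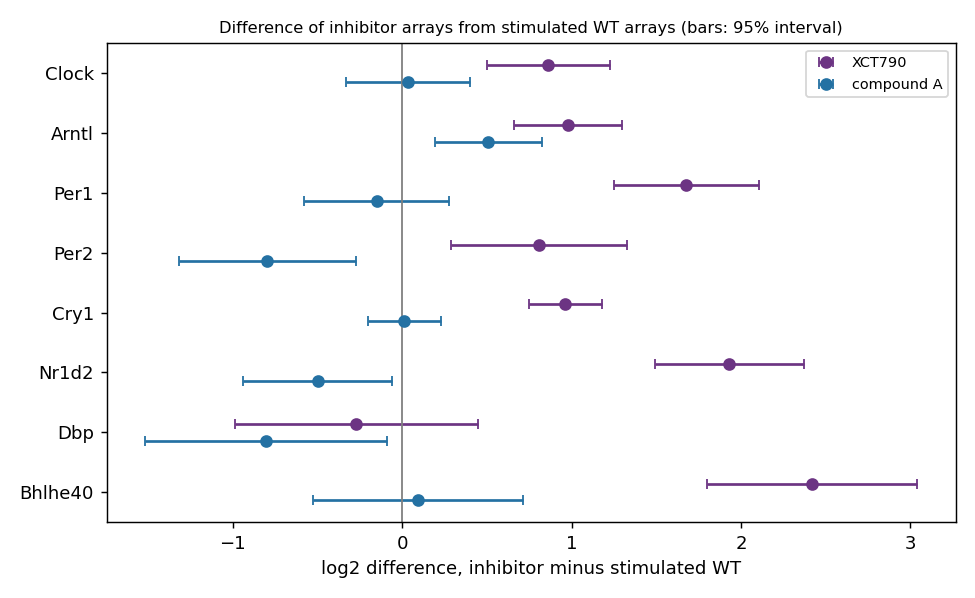
Log2 difference from stimulated WT cells (horizontal axis) of XCT790 (purple, upper of each pair) and compound A (blue) for 8 clock genes, with 95% intervals from the limma fit. XCT790 intervals lie above 0 for 6 of the 7 genes above the floor throughout and span 0 for Dbp, and compound A intervals span 0 for Clock, Per1, Cry1 and Bhlhe40; Per2, partly under the floor, is drawn as a description.

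XCT790 and compound A, 1 pair of compounds at the same dose and time, differed directly for most of these genes. XCT790 was higher than compound A for 6 of 7 genes and lower for none, where 52.6% of all genes passed (24.8% higher and 27.8% lower), and the medians were 0.95 over the 7 genes and -0.01 over all genes. The ratio of XCT790 to compound A was 5.39-fold for Nr1d2 (log2 difference 2.43 ± 0.21, SE; limma adjusted p = 4.70e-07), 5.02-fold for Bhlhe40 (2.33 ± 0.29; 1.40e-05), 3.55-fold for Per1 (1.83 ± 0.20; 4.52e-06), 1.93-fold for Cry1 and 1.77-fold for Clock. The Arntl ratio was 1.39-fold (0.47 ± 0.15; limma adjusted p = 0.0151), and that call ended without XCT790 array 1 (0.0673) or compound A array 1 (0.0585). Dbp did not pass, with a difference of 0.53 and a 95% interval from -0.18 to 1.25. For Npas2 both compounds read under the floor on all arrays, so no difference between them could be measured. Of the 6 T cell markers, 5 were lower with XCT790 than with compound A, and their part was not tested. This comparison lies on one side of the dap split.

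Because the labels call the inhibitor samples unstimulated, they were also set against resting WT cells. With XCT790, 5 of 7 genes passed, 4 higher and Dbp lower, where 71.9% of all genes passed (33.6% higher and 38.3% lower). With compound A, 4 of 7 passed, Cry1 and Bhlhe40 higher and Nr1d2 and Dbp lower, where 69.7% of all genes passed (32.6% higher and 37.1% lower). Bhlhe40 was 36.3-fold higher with XCT790 and 7.23-fold higher with compound A than at rest. Nr1d2 did not pass with XCT790 (log2 difference 0.28 ± 0.21, SE; limma adjusted p = 0.236), where 1 of the 3 XCT790 arrays lay within the range of the resting arrays, but did pass with array weights (0.45; limma adjusted p = 0.000244). It was 4.44-fold lower with compound A than at rest. Arntl passed as lower with compound A without resting WT array 1 (-0.38; limma adjusted p = 0.0449).

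The wider clock was read from 33 further genes, of which 27 had a probe set, 22 were tested and 5 lay under log2 4 on all arrays, Arntl2, Per3, Bhlhe41, Rorb and Hlf. Tef, Nfil3, Usp2 and Wee1 were under log2 4 on some arrays. Counts over the 22 genes, in every comparison, therefore include genes that did not lie above the floor throughout. Usp2 read 3.05 to 4.41, and its means in stimulated KO (3.75) and resting KO cells (3.23) were both under log2 4. No call of Usp2 is read as support. Of these 22, stimulated against resting KO cells had 11 higher and 5 lower, and stimulated against resting WT cells had 10 higher and 6 lower, which makes 16 of 22 called in each, beside 73.4% and 75.4% of all genes. Nfil3, a repressor that competes with DBP for D-boxes, was higher by 4.32 in stimulated KO cells and by 3.60 in stimulated WT cells on the log2 scale. Nampt, which encodes the enzyme of NAD salvage, was higher by 2.52 in KO and 2.15 in WT cells. Rora, a receptor that activates Arntl, was 4.42-fold lower in KO and 8.02-fold lower in WT cells. Between genotypes, 3 genes were higher and 3 lower in resting KO than in resting WT cells (19.0% of all genes passed), the largest difference being that of Csnk2a1, a clock protein kinase, which was 2.01-fold higher in KO. In stimulated cells 1 of 22 passed, where 2.18% of all genes did. It was Gsk3b, a kinase of clock proteins, 1.42-fold higher in KO (log2 difference 0.51 ± 0.08, SE, limma adjusted p = 0.00404). The interaction passed for 0 of the 22, where 0.902% of all genes passed.

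With XCT790, 10 of these 22 genes were higher and 6 lower than in stimulated WT cells, beside 29.1% and 36.9% of all genes. Rora was 15.3-fold higher with XCT790 (log2 difference 3.93 ± 0.22, SE; limma adjusted p = 5.63e-09), against 1.87-fold with compound A (0.90 ± 0.22; limma adjusted p = 0.00702). It was 8.18-fold higher with XCT790 than with compound A. Lower with XCT790 were Wee1, a cell cycle kinase, by a log2 difference of -2.25, Timeless, a replication fork protein with a debated clock role, by 3.37-fold, and Sfpq, an RNA-binding partner of PER proteins, by 3.11-fold. With compound A 4 genes were higher and 5 lower than in stimulated WT cells, beside 14.5% and 18.7% of all genes. Among those lower were Wee1 (-1.32), Tef, a relative of Dbp (-1.19), and Nfil3 (-0.89), on the log2 scale. Between the compounds, XCT790 was higher for 11 and lower for 6 of the 22, beside 24.8% and 27.8% of all genes.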

How the data were processed

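RNA of 18 samples of mouse CD4+ T cells, grouped by the labels, was measured on Affymetrix arrays. Deposited by the authors is 1 log2 value per probe set and array, computed with GCRMA, per the submitters' processing notes; its version and settings are not given in the sources used here. All arrays hold the same sorted values, so they had been quantile normalized. Probe sets were named from the platform annotation (20380 with 1 gene, 691 with several, 1555 with none; 64 controls), and no symbol needed updating.

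Each gene was represented by its probe set of highest mean and tested where that reached log2 4 on at least 3 arrays. One limma model (version 3.58.1, R 4.3.3) covered all 18 arrays with 1 mean per group (12 residual and 2.22 prior degrees of freedom), with two-sided p-values adjusted by Benjamini and Hochberg over 6873 genes within each comparison and a threshold of 0.05. The fit was tested on simulated data. Folds were taken from log2 differences. If no array of the lower group reached log2 4, its level was set to log2 4 and the fold given as "at least"; where the mean of the higher group lay under it, no fold was given. Fold changes of dim probe sets may be understated by GCRMA's background correction. Precision is limited by 3 arrays per group. Each p-value sets a difference against the gene's spread within groups, pooled over all 6 groups and moderated by the limma prior.

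The clock genes, the further lists and the alternatives were chosen with earlier results of these data known. Npas2, and Per2, which passed the floor only through its high groups, were in the fit, but their levels were described without a test. Calls of Per2 enter only the counts under the alternatives and are not read as support. Genes were named by rule: the 10 clock genes, Esrra, Il2 and Il2ra as checks, up to 4 further clock genes of largest change per comparison, and the 5 genes most like Npas2. Equally numbered arrays were checked for pairing by correlating their deviations from group means. All 3 correlations exceeded 0.1 for stimulated against resting KO cells, for KO against WT at rest and after stimulation, and for each inhibitor against stimulated WT cells (0.148 to 0.645). This pairing comes from the data; no label names a day or an animal that samples share. Alternatives were array weights, the array number as a block, arrays numbered 2 and 3 alone, each array left out, the compared groups fitted alone, a robust and trended prior, a common median, a floor of log2 6, no floor, and the mean of all probe sets. Tables and plots used Python 3.11.15 and matplotlib 3.10.9.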

Additional observations from a re-analysis of the deposited data

Results flagged for a closer look

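Npas2 was marked because its response to stimulation differed between the genotypes: the log2 response in KO cells minus that in WT cells was -2.91 ± 0.20 (SE), from 0.65 in KO and 3.56 in WT cells. All KO and resting WT arrays lie under log2 4, so this is a difference of the deposited values, and the bound is that the stimulated WT level was at least 3.49-fold above each of those groups. Over 19 alternatives the difference lay between -3.08 and -2.71. The floor of log2 6 and the mean of all probe sets dropped Npas2 and gave no value. Its SE is pooled over all 6 groups, some of which hardly vary under the floor, and may be too small. Since the gene was proposed for this pattern, no p is given.

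The bacterial control RNA dap was marked because it lies outside the measured genes and differed between sets of arrays. Its 5′ probe set averaged 8.00 ± 0.307 (SD, n = 12) on the KO and inhibitor arrays and 5.11 ± 0.861 (SD, n = 6) on the untreated WT arrays, a log2 difference of 2.89, while its 3′ probe set averaged 11.1 and 11.2 on the same arrays. Its part in the differences between KO or inhibitor and untreated WT arrays was not tested.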

How the results depend on the processing

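No difference of a clock gene that passed the test changed sign under any alternative. Of 80 differences, 12 changed sign under at least 1 alternative, none of which passed in the fit described above or with the changed sign, such as Clock in WT stimulated against resting cells (-0.19 to 0.04) and Dbp with XCT790 against stimulated WT cells (-0.59 to 0.09). The counts below are over 8 genes, Per2 included, although Per2 passed the floor only through groups where it was high and no call of it is read as support. Shares of all genes passing under each alternative are not given here, so a changed count is not read as particular to these genes. Of 156 such counts, 135 stayed within 1.5 times the count of the fit described above, and the exceptions fell in 4 comparisons. For KO against WT at rest, where 0 of 8 genes passed, 2 passed with array weights (Per1 and Bhlhe40), 1 with the replicate block (Dbp), 1 on the arrays numbered 2 and 3 (Per1), and 0 to 1 when each array was left out. For KO against WT after stimulation, also 0 of 8, 2 passed with array weights (Per1 and Per2), 1 on arrays 2 and 3 (Per2) and 0 to 1 with an array left out, and for the interaction 1, 1 and 0 to 1 passed, in each case Per2. For compound A against stimulated WT cells, where Arntl and Per2 passed, 1 passed with no filter and 1 with a floor of log2 6, 4 passed with array weights, the replicate block or arrays 2 and 3, and 0 to 2 passed with an array left out. The replicate block changed no other count beyond 1.5 times, but with it Dbp also passed between XCT790 and compound A (0.53, limma adjusted p = 0.0160). In that comparison the correlations of equally numbered arrays were 0.163, 0.052 and 0.223, so not all of them exceeded 0.1. On a fit of the compared groups alone, Dbp and Nr1d2 passed with compound A, and Per2 was called in neither inhibitor comparison. With array weights, whose estimate did not fully converge, many more genes of the whole array passed. A shift of arrays to a common median moved the median of all genes by less than 0.1 in every comparison. Signals under log2 4, those of Nr1d1, most of Npas2 and most of Per2, cannot be ranked against each other.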

Other observations

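The tested genes outside the clock lists whose signal followed Npas2 most closely over the 18 arrays were Cpped1 (Pearson's r = 0.920), Zfp239 (0.880), Nol6 (0.870), Miga2 (0.863) and Kat2a (0.861). These coefficients are descriptions over 18 arrays that share 6 groups, and the 3 stimulated WT arrays stand apart from the rest for Npas2. Cpped1 averaged 4.83 ± 0.25 in stimulated KO, 4.35 ± 0.14 in resting KO, 4.38 ± 0.20 with XCT790, 4.56 ± 0.06 with compound A, 5.47 ± 0.28 in stimulated WT and 4.42 ± 0.05 in resting WT cells (SD, n = 3 each). Nol6 averaged 6.40 ± 0.24 in stimulated KO, 5.24 ± 0.22 in resting KO, 5.58 ± 0.11 with XCT790, 5.94 ± 0.10 with compound A, 7.08 ± 0.10 in stimulated WT and 5.61 ± 0.15 in resting WT cells. All 5 genes had their highest mean in stimulated WT cells, by smaller margins than Npas2. Since they were picked by r with Npas2, that peak largely follows from the choice and is not a separate result. Among the clock genes, r with Npas2 was highest for Per2, at 0.31, and lowest for Arntl, at -0.58.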
